A study of Mus musculus with 2 samples.

Results

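The genes described here, 10 in number, mark the epicardium and other mesothelia and were measured in RNA from mouse embryonic hearts: Wt1, Tcf21, Upk1b, Upk3b, Lrrn4, Msln, Bnc1, Krt8, Krt18 and Krt19. They were taken by symbol, through the GENCODE M21 annotation, from 43346 Ensembl genes in the tables, and 10 of 10 had a row. The hearts came from B6NCrl embryos at embryonic day 12.5, males and females pooled, with no genetic change or treatment in the labels, and replicate 1 alone is also labelled healthy. There were 2 libraries, labelled as biological replicates of 1 group, each starting from 10 ng of total RNA above 200 nt, and both name the same donor entry. The labels do not say whether the replicates came from separate litters, so the spread between them may be partly technical. With 1 group no condition was compared, and an exact sign test over 2 libraries cannot go below p = 0.5, so no p-values are given.

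The epicardium is the mesothelial sheet that spreads over the surface of the heart. Part of it leaves the surface by an epithelial-to-mesenchymal transition and supplies fibroblasts and mural cells of the coronary vessels. Like other mesothelia it has features of a simple epithelium, with keratin filaments and surface glycoproteins, while its transcription factors are shared with mesenchyme. Whole hearts were sequenced, so fewer cells of a type and less RNA per cell cannot be told apart in any level below.

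Wt1 is made as several proteins, and the bases that set them apart are shown here because the deposited tables split Wt1 by these forms. One splice choice at the end of an internal exon (GRCm38 chromosome 2, 105169926 to 105170018, plus strand) adds or leaves out 9 coding bases between the third and the fourth zinc finger. Protein with the extra residues is known as +KTS and protein without them as -KTS. The coding sequences, read from GENCODE M21 transcripts Wt1-205 and Wt1-202, run 5′ to 3′ with 30 bases on each side of the junction, and capitals mark the 9 bases, at 105170010 to 105170018.
+KTS: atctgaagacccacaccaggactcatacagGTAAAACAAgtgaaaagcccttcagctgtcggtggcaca
-KTS: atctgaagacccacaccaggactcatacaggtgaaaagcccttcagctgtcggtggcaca
Another splice choice includes or skips the whole of exon 5, 51 coding bases (chromosome 2, 105144142 to 105144192).
Exon 5: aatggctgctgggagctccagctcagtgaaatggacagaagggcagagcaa

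All 10 markers were present in both heart libraries. Each had at least 1 TPM, the length-scaled share of the library that the tables give, in both, as did 57.5% of 21461 nuclear protein-coding genes. Their mean levels ran from 7.44 TPM for Bnc1 to 73.7 TPM for Upk3b, a median of 22.7 TPM. The median was 3.64 TPM over all nuclear protein-coding genes and 18.9 TPM over the 12344 of them that passed 1 TPM in both libraries. Together the markers held 14661 of 33480066 estimated gene reads in replicate 1 and 12650 of 30665239 in replicate 2, or 0.0438% and 0.0413%. Every marker was far above the limit that a count of 0 allows, 3 reads, which was 0.0896 and 0.0978 CPM, the share of gene reads on the same scale but with no length correction.

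The transcription factors stood at 3 levels. Tcf21, a basic helix-loop-helix factor of the epicardium and of fibroblast precursors (ENSMUSG00000045680.7, chromosome 10, 22817281 to 22820174, minus strand), had 63.0 TPM in replicate 1 and 61.4 TPM in replicate 2, from 1673 and 1475 reads. Wt1, a zinc finger factor also needed in the kidney and gonad (ENSMUSG00000016458.9, chromosome 2, 105126529 to 105173616, plus strand), had 25.1 and 23.6 TPM, from 1492 and 1241 reads. Bnc1, basonuclin 1, a zinc finger protein also known from keratinocytes and germ cells (ENSMUSG00000025105.8, chromosome 7, 81966672 to 81992292, minus strand), had 7.86 and 7.02 TPM, from 846 and 683 reads. The 3 factors did not overlap with one another in any library. Tcf21 was 2.55 ± 0.0692-fold above Wt1 (SD, n = 2), a log2 ratio of 1.35 that was 22.7 standard errors from 0. The standard error comes from the usual spread between the libraries of genes of like abundance, and it covers neither errors of length nor of read assignment. TPM divides by length, and in replicate 1 the tables give Wt1 a mean transcript length of 2613 bases against 1223 for Tcf21. In CPM the log2 ratio was 0.21, or 3.53 standard errors.

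The surface proteins held both the highest member and several low ones. Upk3b (ENSMUSG00000042985.6, chromosome 5, 136038496 to 136046487, plus strand), a uroplakin family membrane protein used as a mesothelial marker, had 74.0 and 73.3 TPM, from 3929 and 3519 reads. The other uroplakin, the tetraspanin Upk1b (ENSMUSG00000049436.4, chromosome 16, 38773184 to 38800328, minus strand), had 17.0 and 17.1 TPM. Upk3b was therefore 4.31 ± 0.0441-fold above Upk1b, with nearly the same ratio in both libraries (4.34 and 4.28). This fold depends on the length used for Upk3b, 2346 bases here against 3530 in GENCODE M21. In CPM the log2 ratio was 2.54, against 2.11 in TPM. Lrrn4, a leucine-rich repeat membrane protein (ENSMUSG00000043110.2, chromosome 2, 132868305 to 132880891, minus strand), had 17.3 and 18.3 TPM. Mesothelin, Msln (ENSMUSG00000063011.6, chromosome 17, 25748613 to 25754378, minus strand), a lipid-anchored surface glycoprotein, had 11.6 and 10.7 TPM, from 551 and 462 reads, the fewest reads of the 10. For each of these 4 genes the libraries differed by at most 1.08-fold.

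The keratins held the markers that differed most between the libraries, Krt8 and Krt18. Krt8 is a type II keratin, and Krt18 and Krt19 are type I keratins, and a filament of simple epithelium is built from pairs of the types. Krt19 (ENSMUSG00000020911.10, chromosome 11, 100140810 to 100148665, minus strand) had 71.5 TPM in replicate 1 and 72.2 TPM in replicate 2, next to Upk3b at the head of the list. Krt18 (ENSMUSG00000023043.6, chromosome 15, 102028180 to 102032027, plus strand) had 31.9 and 25.5 TPM, from 980 and 709 reads. Krt8 (ENSMUSG00000049382.9, chromosome 15, 101996698 to 102004482, minus strand) had 24.2 and 17.8 TPM, from 975 and 649 reads. Krt8 and Krt18 were thus high in replicate 1 and low in replicate 2, and Krt19 was level. Krt19 was 2.24-fold above Krt18 in replicate 1 and 2.82-fold above it in replicate 2, a mean log2 ratio of 1.33 ± 0.236. Krt18 was 1.37-fold above Krt8 in mean, with a log2 ratio of Krt8 over Krt18 of -0.40 in replicate 1 and -0.52 in replicate 2. The mean log2 ratio in TPM, -0.46, was -6.36 standard errors from 0. In CPM it was -0.067, or -0.804 standard errors, so the gap rests on the length correction, with 1805 bases for Krt8 and 1400 for Krt18.

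**Figure D1:**
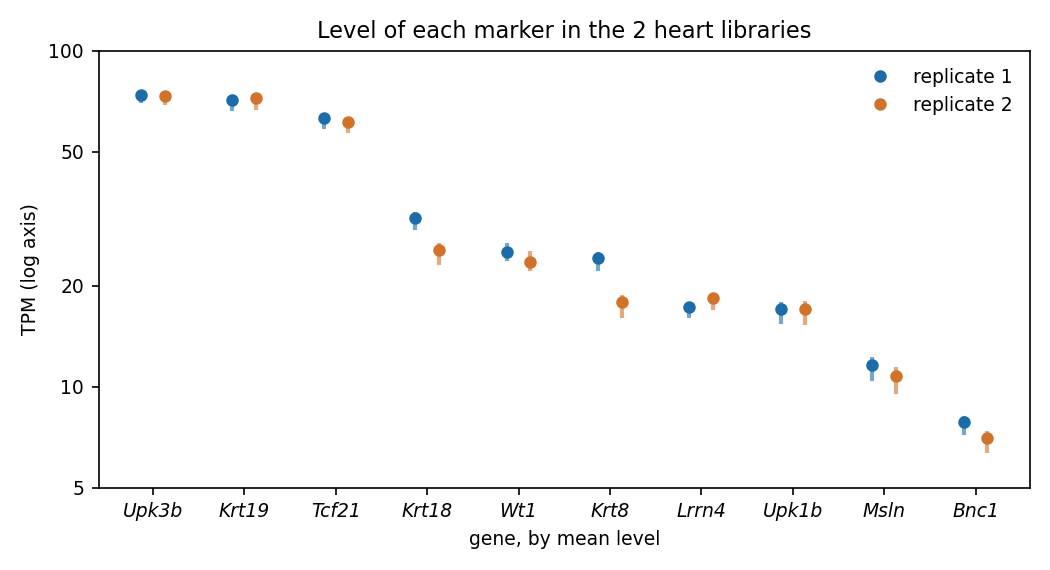
TPM of each marker (log axis) in replicate 1 and replicate 2, ordered by mean level, with the deposited interval of each value as a bar. Upk3b, Krt19 and Tcf21 lie at 61.4 TPM or more and Bnc1 is lowest at 7.02 to 7.86 TPM. The intervals of the libraries separate for Krt18 and Krt8.

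Ordered by mean level the markers read Upk3b, Krt19, Tcf21, Krt18, Wt1, Krt8, Lrrn4, Upk1b, Msln, Bnc1. Of the 9 pairs of neighbours, 6 had the same order in both libraries and a log2 ratio past 3 standard errors. Upk3b and Krt19 were not told apart, with a ratio of 1.03 (0.722 standard errors). Nor were Lrrn4 and Upk1b, with a ratio of 1.04 (0.817 standard errors). Krt8 stood above Lrrn4 in replicate 1 (log2 ratio 0.49) and just below it in replicate 2 (-0.04), so their order was not settled. The 2 calls nearest the limit also involved a keratin: Krt18 over Wt1 at 3.37 and Wt1 over Krt8 at 3.18 standard errors, both with a ratio of 1.17. In replicates 1 and 2 the log2 ratios were 0.34 and 0.11 for Krt18 over Wt1, and 0.05 and 0.40 for Wt1 over Krt8. Krt8 and Krt18 differed more between libraries than most genes of like abundance, from which the standard error is borrowed. It may thus be too small for them, and these 2 calls are weak. With the posterior mean TPM in place of the TPM, Krt18 and Wt1 were no longer told apart. The order holds for length-scaled levels only. In CPM all 9 pairs were past 3 standard errors, 6 in this order and 3 in the opposite one: Krt18 over Wt1 (log2 ratio -0.70), Krt8 over Lrrn4 (-0.86) and Msln over Bnc1 (-0.59). The widest step between neighbours was the 2.18-fold one from Tcf21 down to Krt18, which divides 3 markers with means of 62.2 TPM or more from 7 with 28.7 TPM or less.

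Between the libraries no marker passed a 1.5-fold difference, against 4.66% of the 15154 genes with a mean of at least 20 reads. Krt8 was 1.36-fold and Krt18 1.25-fold lower in replicate 2 (log2 ratios of -0.44 and -0.32 on TPM + 0.1, a scale that slightly understates low genes). At a 1.2-fold limit, chosen after these values were seen, they were the 2 members that passed, both lower in replicate 2, where 17.2% of genes passed either way and 7.75% passed in that direction. The count of 2 of 10 is thus near the share over all genes, which pools genes of every abundance. Among the 1201 genes of the abundance of Krt8, 0.916% lay as far from their median as it did, and among the 1202 of the abundance of Krt18, 1.08%. Both were singled out as the markers that differed most of the 10, so these are not shares for genes picked beforehand. The exact 95% counting intervals of the ratio of CPM, which cover counting error only, ran from 0.657 to 0.803 for Krt8 and from 0.716 to 0.871 for Krt18. The deposited TPM intervals, of a level the files do not state, did not overlap between libraries for 2 of 10 markers, Krt8 and Krt18, against 6.45% of genes. For Krt8 they were 22.2 to 25.1 TPM and 16.1 to 18.7 TPM, and for Krt18 29.3 to 33.2 TPM and 23.1 to 26.8 TPM.

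The other 8 markers differed little. Their log2 ratios of replicate 2 over replicate 1 lay between -0.16 for Bnc1 and 0.09 for Lrrn4, with a median of -0.025. For Krt19, 98.3% of 1202 genes of like abundance lay at least as far from their median. For Wt1 that share was 26.7% and for Bnc1 26.2%, although the counting interval of the CPM ratio lay below 1 for both (0.842 to 0.98 and 0.796 to 0.976). Over all 10 markers the median log2 ratio was -0.06, against 0.02 over all genes with a mean of at least 20 reads. In TPM 7 of the markers were lower in replicate 2, and with edgeR TMM or DESeq2 scaling 9 were, since Upk1b and Krt19 lie so near 0 that the scaling sets their sign.

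**Figure D2:**
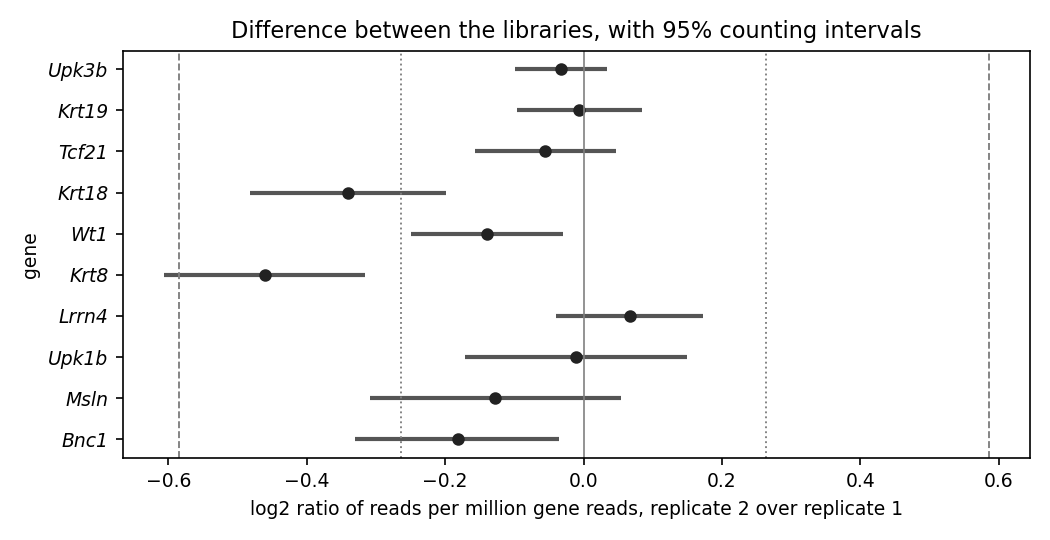
Log2 ratio of CPM, replicate 2 over replicate 1, for each marker, with exact 95% counting intervals. Dotted lines mark a 1.2-fold and dashed lines a 1.5-fold difference. The points of Krt8 and Krt18 lie below the lower dotted line and those of the other 8 within the dotted lines. The intervals of Krt18, Msln and Bnc1 cross the lower dotted line.

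Genes of other cells that contain keratin were read beside these differences. Liver cells are known to carry Krt8 and Krt18, and Krt19 in the liver is known from bile duct cells. All 7 liver genes listed were lower in replicate 2, under each scaling tried, and their summed level was 173 TPM in replicate 1 and 38.0 TPM in replicate 2. None of them was at 0, but Hnf4a was below 1 TPM and nearly level in TPM, at 0.15 and 0.14 TPM (15 and 4 reads). Albumin, Alb, had 9.23 and 1.85 TPM (424 and 77 reads), and the fetal serum protein Afp had 99.3 and 18.2 TPM. All 6 liver genes with a mean of at least 20 reads were past 1.5-fold lower, with a median log2 ratio of -1.86. The part of this difference in the levels of Krt8 and Krt18 was not tested. The 12 genes of epithelial cells in general summed to 10.4 and 11.4 TPM, with 6 lower and 6 higher in replicate 2, none at 0 in both libraries, and 4 of 12 at 1 TPM or more in both. Those averaging 20 or more reads went both ways, with 2 past 1.5-fold lower in replicate 2 and 1 past it higher. The adhesion molecule Epcam had 1.7 and 2.51 TPM and the claudin Cldn6 1.56 and 2.43 TPM, while E-cadherin, Cdh1, had 1.14 and 0.70 TPM and the transcription factor Elf3 0.74 and 0.39 TPM. Rab25 was at 0 in replicate 2. The 6 lung and foregut genes summed to 1.02 and 3.35 TPM with 5 of 6 higher in replicate 2, none detected and none at 0 in both, the lung and thyroid factor Nkx2-1 had 5 and 49 reads, and Sftpc was at 0 in replicate 1. The part of these genes in the levels of the markers was not tested either. Heart muscle genes, 7 in number, summed to 33766 and 34041 TPM, with no gene past 1.2-fold, and the 5 endothelial genes to 241 and 253 TPM, again with none past it.

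**Figure D3:**
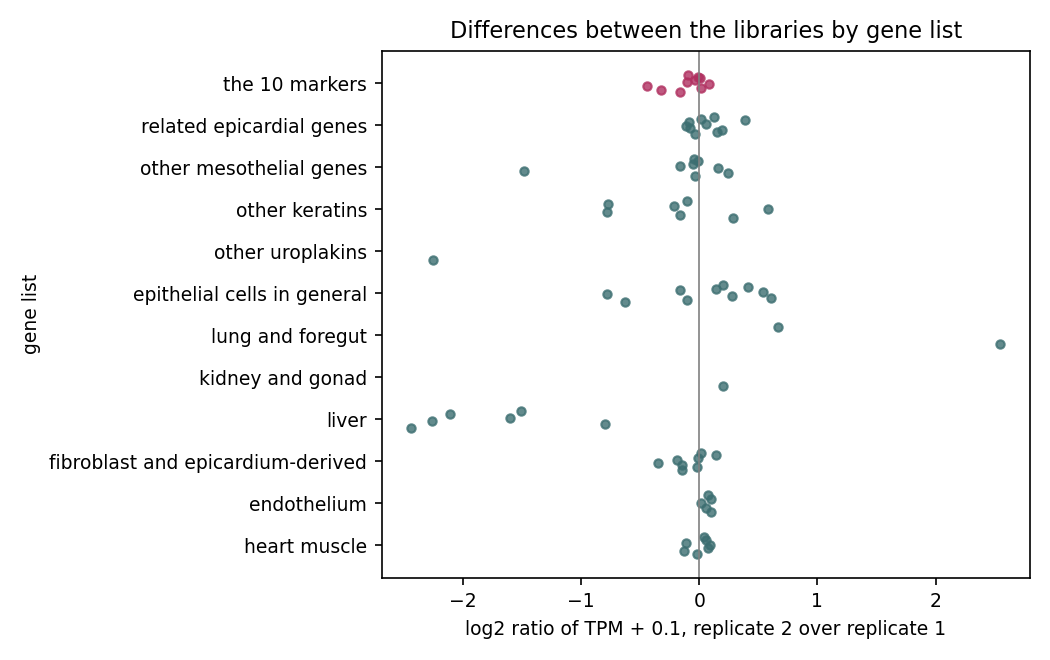
Log2 ratio of TPM + 0.1, replicate 2 over replicate 1, for genes with a mean of at least 20 reads, by gene list, 1 point per gene. The 6 liver points all lie left of 0 with a median of -1.86, and the 10 markers lie between -0.44 and 0.09.

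Krt8 and Krt18 are neighbours on chromosome 15, transcribed away from each other from GENCODE M21 starts 23.7 kb apart. Krt8 is on the minus and Krt18 on the plus strand. Their promoter windows, from 250 bases before to 50 after the RefSeq start (GRCm38.p6), are shown because these 2 markers differed together between the libraries. The Krt8 window is chr15:102004293-102004592 on the minus strand and the Krt18 window is chr15:102027966-102028265 on the plus strand. The M21 starts, at 102004482 for Krt8 and 102028180 for Krt18, fall inside these windows, upstream of the RefSeq starts. Capitals mark matches on either strand to the TATA box letters TATAAA.
Krt8: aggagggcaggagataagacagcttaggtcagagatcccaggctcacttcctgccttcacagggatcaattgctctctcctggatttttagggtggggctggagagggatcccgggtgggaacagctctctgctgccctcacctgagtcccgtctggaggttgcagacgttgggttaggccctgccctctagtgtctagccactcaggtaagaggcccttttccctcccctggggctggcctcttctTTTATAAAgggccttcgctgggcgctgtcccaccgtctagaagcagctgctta
Krt18: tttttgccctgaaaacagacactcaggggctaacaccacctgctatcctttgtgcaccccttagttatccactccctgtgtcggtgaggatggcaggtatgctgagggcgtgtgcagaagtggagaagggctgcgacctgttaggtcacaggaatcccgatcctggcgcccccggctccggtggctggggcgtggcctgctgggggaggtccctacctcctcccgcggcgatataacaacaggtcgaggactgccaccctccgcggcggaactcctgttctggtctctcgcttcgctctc

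The Krt8 window had 2 matches to TATAAA, overlapping on opposite strands, and the Krt18 window had none. Both Krt8 matches span the RefSeq start and lie inside the M21 span of the gene, not upstream of it. Such a match was in 14.2% of 27025 promoter windows of the same length. The AP-1 letters TGANTCA, found in 7.93% of windows, were in neither. The GC box letters GGGCGG, in 35.9% of windows, were in neither as well, although Krt18 had 17 CpG pairs and 61.3% G and C against 6 pairs and 58% in Krt8. E box letters, CANNTG, which basic helix-loop-helix factors such as Tcf21 bind, were at 3 places in Krt8 and 1 in Krt18, and in 72.1% of all windows. RefSeq windows were matched for 6 of the 10 markers: Tcf21, Upk3b, Lrrn4, Bnc1, Krt8 and Krt18. The GC box was in 1 of these 6, Bnc1, with 6 matches in a window of 83.3% G and C, against a median of 52.7% over all windows. These matches describe letters and not bound sites.

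Of the markers 8 had 1 transcript in the tables, and Wt1 (8 transcripts) and Krt19 (3) had several. For both the same transcript led in both libraries, as it did for 94.4% of genes with a mean of at least 10 TPM and 2 or more transcripts. The leading Wt1 transcript was Wt1-205 (ENSMUST00000143043.3), which starts at the outer first exon (chromosome 2, 105126529 to 105127442) and holds both exon 5 and the 9 bases. It had 46.0% of Wt1 in replicate 1 and 37.6% in replicate 2, or 41.8 ± 5.95% (SD, n = 2). Wt1-201 (ENSMUST00000111098.3), from an inner first exon (105130883 to 105131152), without exon 5 and with the 9 bases, had 21.1% and 32.6%. Wt1-202 (ENSMUST00000111099.1), also from the inner first exon, with exon 5 and without the 9 bases, had 22.5% and 18.5%. Wt1-201 was thus the less abundant of the inner pair in replicate 1 and the more abundant in replicate 2. The estimated reads of Wt1-201 were 287 and 376, with posterior SDs of 50.7 and 53.3, and the deposited intervals of its TPM overlapped (3.48 to 7.23 and 5.38 to 9.71). Those of Wt1-205 fell just short of overlapping, at 9.7 to 12.4 and 6.93 to 9.63 TPM. A transcript with a retained intron, Wt1-208, had 7.35% and 7.18%, and the remaining 4 had at most 3.21% each in either library.

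Summed by structure over the 6 coding transcripts, forms with the 9 bases shown at the top had 75.0% of coding Wt1 TPM in replicate 1 and 78.3% in replicate 2, or 76.7 ± 2.31%. Forms without them had 25.0% and 21.7%. Forms with exon 5 had 75.5% and 62.5%, and forms from the inner first exon 48.0% and 57.0%. The share of the 9 bases differed by less between these 2 libraries than those of exon 5 and the start. Forms without the 9 bases were nearly all Wt1-202, whose 313 and 218 reads had posterior SDs of 45.1 and 41.7. The order of these spreads is therefore not settled. The 6 coding transcripts hold 5 of the 8 combinations of these choices. No annotated transcript joins the inner start to both exon 5 and the 9 bases, for example, so reads of such an RNA would be counted under other forms, and the shares are not independent of one another.

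Krt19 was split almost alike in both libraries. Its coding transcript Krt19-201 (ENSMUST00000007317.7) had 66.6% in each, and Krt19-203 (ENSMUST00000126460.3), annotated without a coding sequence, had 33.4% in each. Krt19-203 begins at a first exon of 34 bases within the first intron (chromosome 11, 100143666 to 100143699) and lacks the 690-base first exon of the coding form (100145431 to 100146120). The 2 transcripts share 4 exons exactly, and the posterior SD of Krt19-203 was 39.1 reads of 409 in replicate 1 and 34.3 of 373 in replicate 2. At the level of the gene the reads of 9 of the 10 markers carried a posterior SD of 0 in both libraries, and for Bnc1 it was 0.52 and 0.3 reads.

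**Figure D4:**
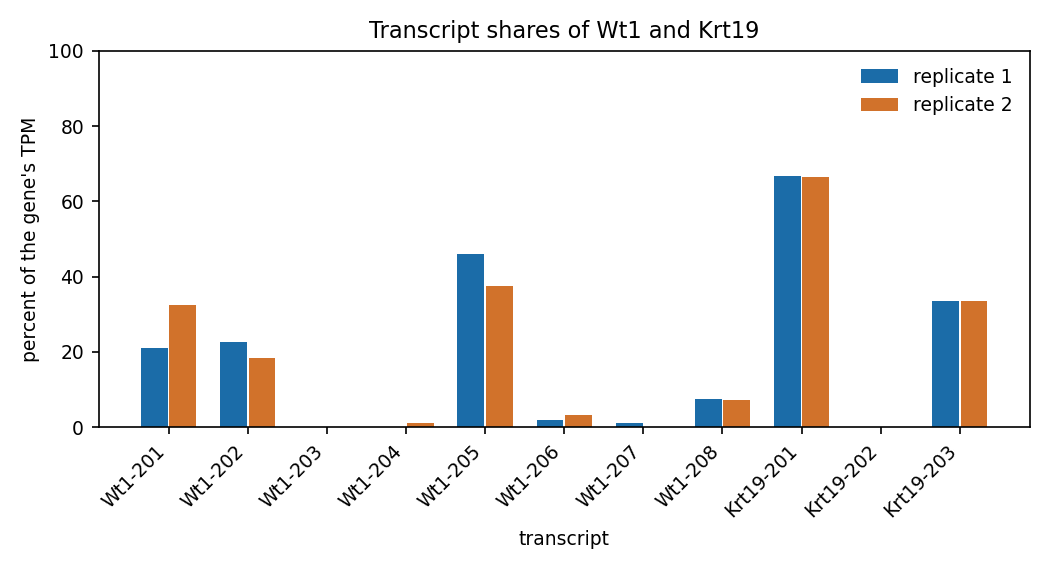
Share of each transcript in the TPM of its gene, in percent, for Wt1 (8 transcripts) and Krt19 (3 transcripts), with 1 bar per library. Wt1-205 leads in both libraries at 46.0% and 37.6%, and the Krt19 shares of 66.6% and 33.4% are level between libraries.

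Some markers overlap or adjoin other genes, and neither labels nor files say whether the libraries keep strand. Wt1os, an antisense gene that starts 18 bases from Wt1 and runs the other way, had 34 and 52 reads, 0.83 and 1.78 TPM. The antisense gene Gm10824 of GENCODE M21 spans all 2894 bases of Tcf21, and the noncoding gene Gm36026 overlaps the first 271 bases of Krt8. Neither matched a row of the tables, so any reads of theirs on the shared bases cannot be told from Tcf21 or Krt8. The pseudogene 4833418N17Rik, on the opposite strand over 291 bases at the start of Bnc1, had 4.21 and 4.06 reads.

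Other genes of the epicardial programme were also present. All 10 listed were detected, with a median of 13.2 TPM and a range of 1.33 to 28.8 TPM, against 22.7 TPM and 7.44 to 73.7 TPM for the markers. The highest were Aldh1a2, which makes retinoic acid, at 29.1 and 28.4 TPM, Podxl, a sialomucin, at 22.8 and 23.8 TPM, Gata5, a zinc finger factor, at 20.2 and 23.1 TPM, and the T-box factor Tbx18. Their median log2 ratio of replicate 2 over replicate 1 was 0.03, with 4 of 10 lower in replicate 2 and none past 1.5-fold. Of 12 other mesothelial genes 11 had a row and 6 were detected, with a median of 1.65 TPM. In TPM 8 of the 11 were lower in replicate 2, and of the 8 with a mean of at least 20 reads 1 was past 1.5-fold lower and none past it higher. This was the complement gene C3, which liver cells also make, with 176 and 58 reads, 2.79-fold lower in TPM. The highest were Nkain4, a membrane protein that interacts with the sodium pump, at 30.3 and 29.3 TPM, the type II keratin Krt7 at 20.1 and 19.9 TPM, and Gpm6a at 14.0 and 13.5 TPM. Krt7 thus lay close to Krt8 in level, but was level between the libraries. Muc16, the known binding partner of mesothelin, matched no row and was not analysed here. Tcf21 pairs with E proteins, and the 3 listed, Tcf3, Tcf4 and Tcf12, lay between 37.7 and 71.8 TPM in mean.

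Relatives of the markers that belong to other epithelia were low. Among 12 other keratins, 5 passed 1 TPM in both libraries and the median was 0.885 TPM. In TPM 9 of the 12 were lower and 2 higher in replicate 2, and with edgeR TMM or DESeq2 scaling 8 and 3. Of the 7 with a mean of at least 20 reads, 2 were past 1.5-fold lower and none past it higher. These were the basal epithelial pair Krt5, with 77 and 39 reads, and Krt14, with 62 and 35 reads, both 1.71-fold lower in TPM. At a 1.2-fold limit 2 of the 7 were lower and 2 higher. The higher ones included Krt17, with 35 and 49 reads and a log2 ratio of 0.585, right at the 1.5-fold limit. The highest keratins of the list were Krt80 at 6.24 and 5.81 TPM, Krt10 at 4.88 and 4.34 TPM and Krt20 at 3.36 and 2.89 TPM. Krt6a was listed at 0 in both libraries. None of 4 other uroplakins reached 1 TPM in both libraries. Upk3a, a bladder partner of Upk1b, was listed at 0 in both, and Upk1a had 64 reads in replicate 1 and 10 in replicate 2 (2.24 and 0.39 TPM). No gene of the kidney and gonad list of 8 was detected, their sum was 1.36 and 2.07 TPM, and the kidney factor Pax2 was at 0 in both libraries. Genes that tie filaments to junctions were higher: 5 of 6 were detected, led by Jup, plakoglobin, at 87.5 and 88.0 TPM and desmoplakin, Dsp, at 39.8 and 45.4 TPM, both of which heart muscle also uses. Genes of fibroblasts and epicardium-derived cells, 8 of 8 detected, had a median of 79.8 TPM and a range of 1.55 to 569 TPM. The receptor Pdgfra had 30.4 and 30.2 TPM, below Tcf21. In TPM 6 of the 8 were lower and 2 higher in replicate 2, with 1 past 1.2-fold lower and none past 1.5-fold.

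**Figure D5:**
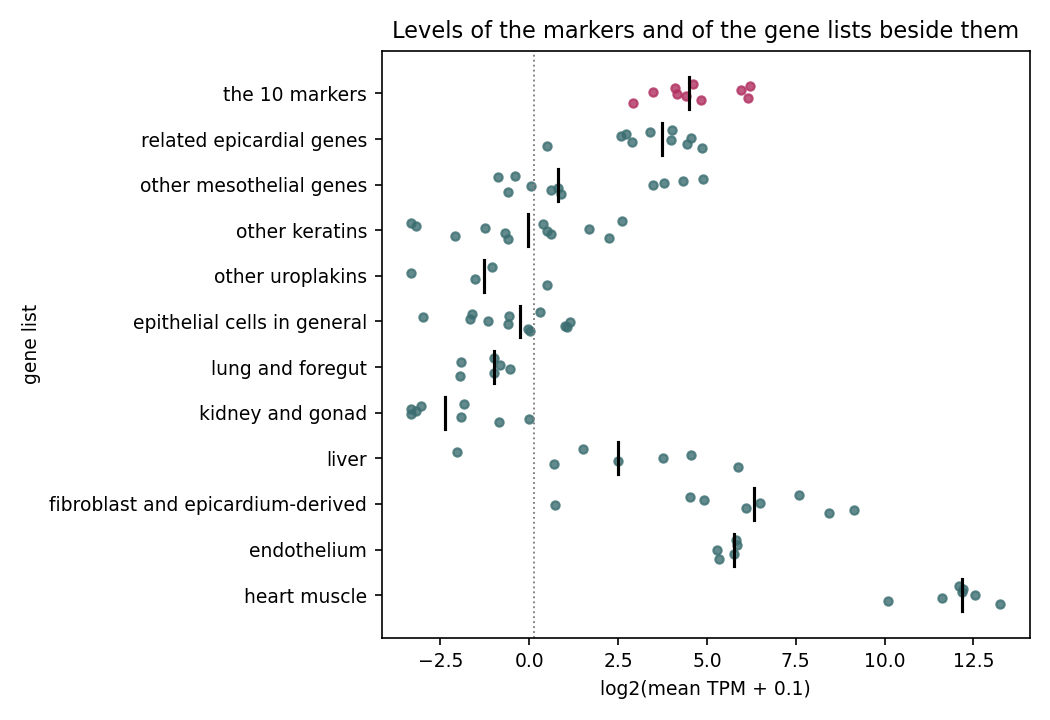
Levels of the 10 markers and of 11 gene lists as log2(mean TPM + 0.1), 1 point per gene, with a black bar at the median and a dotted line at 1 TPM. The markers and the related epicardial genes all lie right of the dotted line, and no kidney and gonad gene does.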

How the data were processed

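Per the deposited notes, reads were aligned to mm10 and quantified with genome annotation M4. The aligner and quantifier, with their versions, are named neither in the labels nor in the file headers (not given in the sources used here), and a SMARTer Ultra Low RNA manual is linked in the labels. The authors deposited expected counts (estimated reads, shared reads divided), TPM, FPKM, percent of each transcript in its gene, posterior means, posterior SDs and TPM intervals. Symbols and coordinates came from GENCODE M21 on GRCm38, and promoters from RefSeq GRCm38.p6. M4 and M21 gave the Wt1 and Krt19 transcripts the same lengths. Lrrn4 and Msln matched as well, but the other markers did not. Upk3b differed most, with 2346 bases in the deposited values and 3530 in M21. Upk1b had 1769 and 1894 bases, and Krt8 1805 and 1958. All TPM levels rest on the deposited lengths.

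Differences between libraries were log2 ratios of TPM + 0.1. Standard errors came from the robust SD between libraries in 20 abundance bins. Only genes with a mean of 20 or more expected counts entered shares of genes past a fold. Expected counts were rounded for edgeR 4.0.16 TMM factors and DESeq2 1.42.0 size factors (R 4.3.3), used as alternatives only. The rest was done in Python 3.11.15 with scipy 1.17.1, pandas 2.3.3, numpy 2.4.6 and matplotlib 3.10.9, tested on simulated counts. Other scalings, pseudocounts, minimum counts, estimates and single libraries were tried as alternatives. The 10 markers, the lists and the rules were chosen with earlier results of these data known. Named are all markers, genes that overlap or partner them, up to 4 of the highest members of a list, and detected members of lists of other epithelia or organs. Pdgfra, Nkx2-1, Cdh1, Elf3, Krt5, C3, Hnf4a and the genes listed at 0 were named after their values were seen. A result of 1 listed gene is not reported here.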

Additional observations from a re-analysis of the deposited data

How the results depend on the processing

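All 10 markers stayed detected at 5 TPM, in FPKM and in each library alone, and none passed 1.5-fold under any scaling, pseudocount or estimate tried. The median level was 31.1 TPM when TPM was rescaled over nuclear protein-coding genes without globins, which raises every gene alike, and 20.9 to 24.7 TPM in single libraries. Neighbours told apart in the order of mean TPM numbered 5 to 6. With no length correction all 9 pairs were told apart, 3 of them in the opposite order. In that unit Krt8 over Krt18 was -0.067 and no longer past 3 standard errors. Wt1-205 held 50.2% of the expected counts of Wt1 in mean, a share without length correction. Its share of Wt1 TPM was 41.8% in mean and 37.6% to 46.0% in single libraries. Of 50 values of single markers under other scalings, 4 changed sign: Upk1b became -0.020 with TMM and -0.019 with DESeq2 factors, and Krt19 -0.015 and -0.014. Krt8 and Krt18 passed 1.2-fold under each. With 2 libraries the spread of any 1 gene is poorly known. No paired analysis was possible because there was only 1 group.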
